A study of Homo sapiens with 4 samples.

Results

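Genes that mark human embryonic stem cells (hESCs) were followed in hESC-derived cells at day 8 of hematopoietic differentiation: POU5F1, NANOG, SOX2, LIN28A, LIN28B, DPPA4, DNMT3B, SALL4, ZFP42 and L1TD1. They were taken by symbol from a table of 58365 genes, each of the 10 symbols had 1 row, and all 10 had a value above 0 in every library. The cells were H1, an established hESC line. All 4 libraries came from cells that had received activinA (40 ng/ml) with BMP4 (50 ng/ml) for 2 days and VEGF (40 ng/ml) with bFGF (50 ng/ml) for 3 days. VEGF and bFGF were continued for 3 more days, with the vehicle DMSO in 2 libraries and with SB431542 (SB), a small molecule that blocks the TGFβ type I and activin receptors, in the other 2. The study describes collecting CD31+ cells at day 8, a step that the labels do not mention. No library of undifferentiated hESCs was analysed here, so the values say what was present at day 8 and not how far a gene had come down.

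POU5F1 (also called OCT4), SOX2 and NANOG are transcription factors that hold hESCs in the pluripotent state by activating each other and many of the other genes of that state. LIN28A and LIN28B are RNA-binding proteins that block the maturation of let-7 microRNAs, and let-7 in turn represses the LIN28 messages. In hESCs the activin and NODAL branch of the TGFβ family sustains NANOG, which is why a receptor inhibitor could be asked about for these genes. LIN28B, DNMT3B and SALL4 also have known roles outside pluripotent cells, LIN28B among them in fetal blood progenitors.

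The let-7 sequences and the places in the messages that match them are shown here because they are the link between the LIN28 pair and the let-7 targets described further on. The capitals in each microRNA mark the seed, bases 2 to 8, and 11 mature human microRNAs share it. Of these, let-7a-5p lies at chr9:94175962-94175983 on the plus strand, let-7g-5p at chr3:52268336-52268357 on the minus strand and miR-98-5p at chrX:53556299-53556320 on the minus strand (RefSeq, GRCh38.p14).
let-7a-5p: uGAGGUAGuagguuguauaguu
let-7g-5p: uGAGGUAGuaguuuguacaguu
miR-98-5p: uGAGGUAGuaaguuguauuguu

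The 7 letters that pair with the seed, CTACCTC, were searched on the message strand in the longest annotated 3′UTR of each of the 10 genes (GENCODE 29, GRCh38). They occurred 4 times in LIN28B, once in LIN28A and once in SALL4, and did not occur in the other 7 genes. Such a match was present in 9.7% of the 19113 genes with a 3′UTR, and in 22.9%, 16.2% and 12.0% of the genes with a 3′UTR within 25% of the length of those of LIN28B, LIN28A and SALL4. The match is a property of the letters and does not show that the site is used. In the lines below, 30 bases of the exonic 3′UTR are given for each match, with the 7 letters in capitals. The LIN28A window lies at chr1:26427345-26427374 on the plus strand. The LIN28B windows lie at chr6:105078809-105078838, chr6:105081236-105081265, chr6:105081418-105081447 and chr6:105082857-105082886 on the plus strand, and the SALL4 window at chr20:51782919-51782948 on the minus strand.
LIN28A: agtgcacagcctattgaaCTACCTCatttt
LIN28B site 1: tttacccggttgcaaagtCTACCTCatgca
LIN28B site 2: atgtactgatgatagtaaCTACCTCtgagt
LIN28B site 3: tctgtttacagcaaaaggCTACCTCatagt
LIN28B site 4: tgaaaatgatggtgttgaCTACCTCttgaa
SALL4: gtgaaagctttaatttatCTACCTCattta

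The 10 genes fell into 2 sets at day 8. LIN28A, DNMT3B, DPPA4, LIN28B and SALL4 had mean levels over the 4 libraries of 58.7, 44.1, 32.0, 16.4 and 14.0 FPKM (fragments per kilobase of transcript and per unit of sequencing depth, a unit that allows levels of different genes to be compared per length). ZFP42, POU5F1, L1TD1, SOX2 and NANOG had mean levels of 1.09, 0.936, 0.604, 0.0661 and 0.0132 FPKM. The 5 higher genes gave between 98.1% and 98.6% of the summed level of the 10 genes in each library. The lowest value of the higher set, 10.8 FPKM for LIN28B in DMSO replicate 1, was above the highest of the lower set, 1.69 FPKM for ZFP42 in DMSO replicate 2. The DNA-binding factors that define the core of the pluripotency network were thus in the lower set, and both LIN28 paralogs in the higher one.

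**Figure D1:**
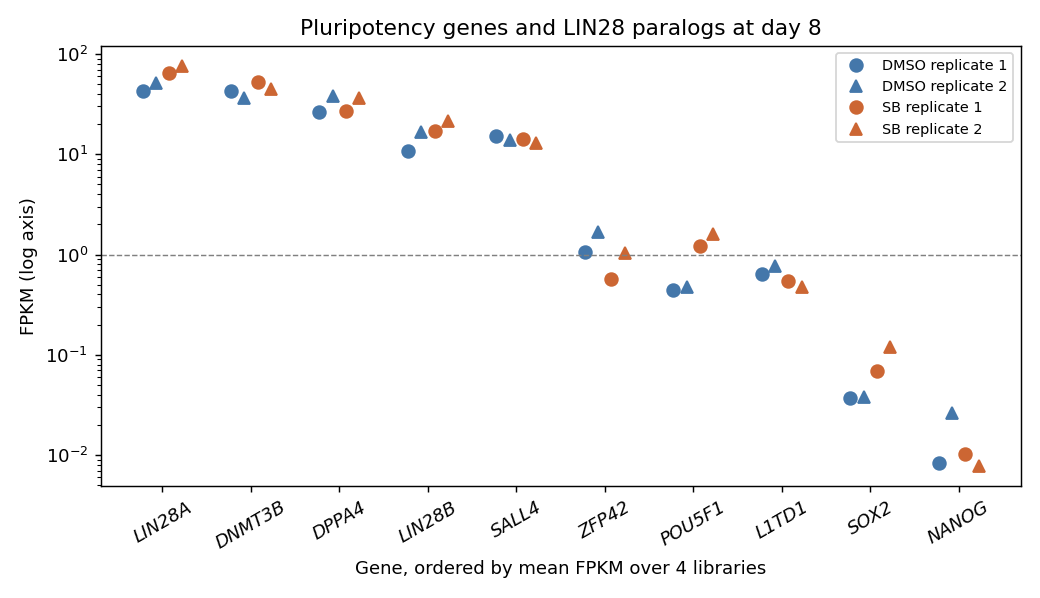
Level of each of the 10 genes in FPKM on a log axis, with 1 point per library, DMSO in blue and SB in orange, circles for replicate 1 and triangles for replicate 2, and a dashed line at 1 FPKM. LIN28A, DNMT3B, DPPA4, LIN28B and SALL4 lie above 10 FPKM in all 4 libraries, whereas SOX2 and NANOG lie at or below 0.121 FPKM.

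The 4 libraries had like sums of FPKM, from 570844 to 612614, and between 14183 and 14372 genes reached 1 FPKM in each. The absolute depth is unknown. The relative depth, recovered from the steps in which single-exon genes rise, was between 75.8% and 100% of the deepest library, with SB replicate 1 the shallowest. The libraries also stood apart by replicate number: mitochondrial genes took 5.88% and 6.64% of the FPKM in the replicates numbered 1 and 9.92% and 10.2% in those numbered 2. PECAM1, which encodes CD31, had levels of 197 and 163.2 FPKM with DMSO and 182 and 153 FPKM with SB. Nothing in the labels says that the libraries came from separate cultures, so the p-values measure only the spread between these libraries.

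In the comparison of SB with DMSO, 7 of the 10 genes had a mean of at least 1 FPKM in at least 1 group and were tested with limma, and 0 of the 7 passed at an adjusted p under 0.05. Over all 14909 tested genes, 20 passed, which is 0.134%. Without adjustment, 2 of the 7 genes (POU5F1 and LIN28A) had a p under 0.05, as did 9.96% of all tested genes. In 5 of the 7 genes SB and DMSO were without overlap, against 37.5% of all tested genes. The 2 SB libraries were both above the 2 DMSO libraries in 4 of the 7 and both below in 1, beside 21.5% and 16.0% of all tested genes. POU5F1 entered the test only through its SB level and ZFP42 only through its DMSO level, so their counts are not evidence of a direction. Of the 5 genes with a mean of at least 1 FPKM in both groups, LIN28A, LIN28B and DNMT3B were above with SB (3 genes), DPPA4 and SALL4 overlapped (2 genes), and 0 were below. Of the 13659 genes with such means, 21.1% were above and 14.4% below. In bulk RNA, more cells of a type and more RNA per cell cannot be told apart in any of these differences.

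**Figure D2:**
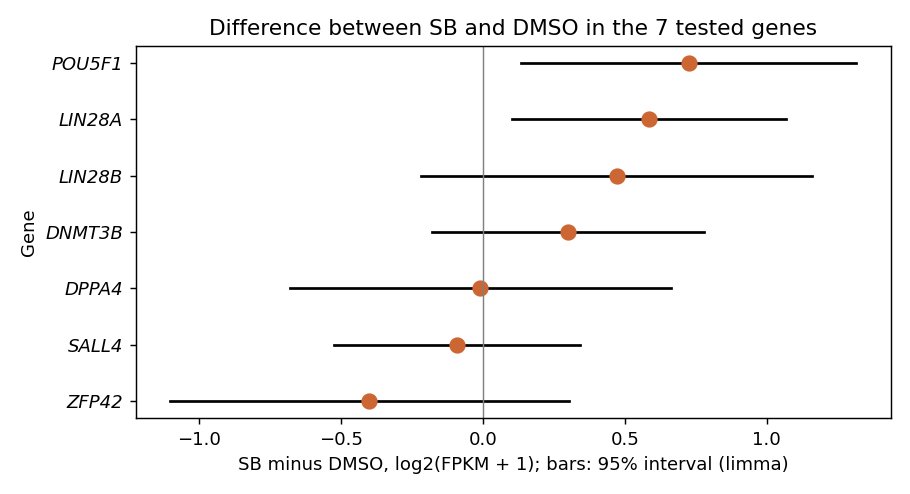
Difference between SB and DMSO on the log2(FPKM + 1) scale for the 7 tested genes, with 2 libraries per group; points are the estimates and bars the 95% intervals from limma. The intervals of POU5F1 (0.13 to 1.31) and LIN28A (0.10 to 1.07) lie above 0, the other 5 include 0, and no gene passed after adjustment over all tested genes.

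LIN28A (ENSG00000131914.10, chr1:26410778-26429722, plus strand), the paralog that binds let-7 precursors and recruits the enzymes that tag them for decay, had the highest level of the 10 genes in all 4 libraries. Its levels were 42.6 and 51.0 FPKM with DMSO and 65.2 and 76.0 FPKM with SB. Both SB libraries were above both DMSO libraries, and between 83.9% and 92.5% of the tested genes were lower in the same library. The mean was 46.8 ± 5.93 FPKM (SD, n = 2) with DMSO and 70.6 ± 7.63 FPKM (SD, n = 2) with SB, a ratio of 1.51. On the log2(FPKM + 1) scale the difference was 0.59 (SE 0.186, 95% interval 0.10 to 1.07), and it did not pass in limma (unadjusted p = 0.0266, adjusted p = 0.409). Within the replicates numbered 1 the difference was 0.60, and within those numbered 2 it was 0.57. With the replicate number as an added term in limma, LIN28A passed (adjusted p = 0.0154), as did 10.5% of all tested genes. The labels do not say that this number pairs cultures. Of all tested genes, 11.6% had a larger difference in size. The processed pseudogene LIN28AP1 was listed at 0.631 FPKM in SB replicate 2 and at 0 in the other 3 libraries.

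LIN28B (ENSG00000187772.7, chr6:104936616-105083332, plus strand), the paralog known from fetal liver progenitors and from many tumors, was lower than LIN28A in every library. Its levels were 10.8 and 16.7 FPKM with DMSO and 16.9 and 21.3 FPKM with SB. The groups did not overlap, but DMSO replicate 2 and SB replicate 1 were almost equal. The means of 13.7 ± 4.20 and 19.1 ± 3.13 FPKM (SD, n = 2 each) gave a difference of 0.47 (SE 0.265, 95% interval -0.22 to 1.16), which did not pass in limma (adjusted p = 0.705). It was 0.18 without DMSO replicate 1 and 0.77 without DMSO replicate 2. The level of LIN28A was between 3.05 and 3.96 times that of LIN28B, and this ratio of levels did not separate the groups (3.96 and 3.05 with DMSO, 3.86 and 3.57 with SB). The antisense gene LIN28B-AS1, which overlaps LIN28B on the other strand, had levels of 0.353 and 0.310 FPKM with DMSO and 0.719 and 0.604 FPKM with SB. The strand setting of the counting is not given in the sources used here, so the reads of this pair cannot be separated with certainty.

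DNMT3B (ENSG00000088305.18, chr20:32762385-32809356, plus strand), a DNA methyltransferase that sets new methylation marks and is abundant in hESCs, had levels of 42.3 and 36.5 FPKM with DMSO and 53.1 and 44.4 FPKM with SB. Both SB libraries were above both DMSO libraries. The difference was 0.30 (SE 0.185, 95% interval -0.18 to 0.78) and did not pass in limma (adjusted p = 0.738). Its level was close to that of its paralog DNMT3A, at 0.977 to 1.13 times the DNMT3A level in the same library. DNMT1, the methyltransferase that copies marks at replication, stood at 1.19 to 1.38 times the DNMT3B level. DNMT3L, the cofactor of both de novo enzymes that is itself typical of early embryonic cells, was listed at 0 in all 4 libraries.

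DPPA4 (ENSG00000121570.12, chr3:109326141-109337572, minus strand), a chromatin protein of pluripotent cells and early embryos, had levels of 26.7 and 37.7 FPKM with DMSO and 27.0 and 36.7 FPKM with SB. The groups overlapped, and both replicates numbered 2 were above both replicates numbered 1. The difference was -0.01 (SE 0.258, 95% interval -0.68 to 0.66), with an adjusted p of 0.998 in limma, and this interval leaves room for a change of FPKM + 1 between 0.624 and 1.58 times. Its sign rests on single libraries, since the difference became 0.23 without DMSO replicate 2 and 0.20 without SB replicate 1. DPPA2, the partner with which DPPA4 acts in hESCs, was far lower, at 0.595 and 0.621 FPKM with DMSO and 0.139 and 0.140 FPKM with SB, and it stayed under the minimum for the test.

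SALL4 (ENSG00000101115.12, chr20:51782331-51802520, minus strand), a zinc finger factor that binds the NuRD complex and is also used in progenitor cells, had like levels in the 4 libraries, at 15.2 and 13.7 FPKM with DMSO and 14.2 and 12.8 FPKM with SB. The groups overlapped, and the replicates numbered 2 were below those numbered 1. The difference was -0.09 (SE 0.167, 95% interval -0.53 to 0.34), with an adjusted p of 0.944 in limma. Its family member SALL2 stood at 16.7 and 15.6 FPKM with DMSO and 15.9 and 16.5 FPKM with SB. SALL1, another family member, had 11.0 and 9.14 FPKM with DMSO and 8.05 and 6.37 FPKM with SB, a difference of -0.44 that did not pass (adjusted p = 0.598, limma).

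POU5F1 (ENSG00000204531.17, chr6:31164337-31180731, minus strand) had levels of 0.442 and 0.473 FPKM with DMSO and 1.23 and 1.60 FPKM with SB. Both SB libraries were above both DMSO libraries, although even the highest value was above only 12.9% of the tested genes in its library. The mean was 0.458 ± 0.0223 FPKM (SD, n = 2) with DMSO and 1.42 ± 0.265 FPKM (SD, n = 2) with SB, a ratio of 3.09. On the log2(FPKM + 1) scale, which understates a change at such levels, the difference was 0.72 (SE 0.227, 95% interval 0.13 to 1.31) and did not pass in limma (unadjusted p = 0.0256, adjusted p = 0.403). With a pseudocount of 0.1 in place of 1 the difference was 1.43 and again did not pass. The POU5F1 locus overlaps TCF19 on the opposite strand, which had levels of 0.903, 0.935, 1.05 and 0.910 FPKM in DMSO 1, DMSO 2, SB 1 and SB 2, and this is the only row overlapping or named after any of the 10 genes that reached 1 FPKM. The retrocopy POU5F1B and the 6 annotated pseudogenes of POU5F1 had levels of at most 0.269 FPKM. The highest of them, POU5F1P3, had 0.256 and 0.269 FPKM with DMSO and 0.128 and 0.145 FPKM with SB. These levels are not small beside those of POU5F1 with DMSO, and the part of shared reads in the POU5F1 values was not tested.

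SOX2 (ENSG00000181449.3, chr3:181711924-181714436, plus strand), the partner of POU5F1 on many enhancers and a factor of neural progenitors, had levels of 0.0369 and 0.0382 FPKM with DMSO and 0.0684 and 0.121 FPKM with SB. It has 1 exon of 2513 bases, and at this length 1 fragment was worth between 0.0173 and 0.0228 FPKM. The 4 values correspond to 2, 2, 3 and 7 fragments, whose exact Poisson 95% intervals are 0.242 to 7.22, 0.242 to 7.22, 0.619 to 8.77 and 2.81 to 14.4. After allowance for depth, SB held 2.61 times the fragments of DMSO, with an exact binomial 95% interval of 0.753 to 11.4 that covers counting error only and includes 1. No difference in SOX2 was therefore detectable at this depth. SOX2-OT, the long noncoding gene that contains SOX2 on the same strand, had 0.0793 and 0.258 FPKM with SB and was listed at 0 with DMSO. The related SOX genes SOX1 and SOX3, which mark neural progenitors, were at or below 0.0275 FPKM.

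NANOG (ENSG00000111704.10, chr12:7787794-7799141, plus strand), the homeobox factor that activin signaling sustains in hESCs, had the lowest level of the 10 genes in every library. Its levels were 0.00841 and 0.0261 FPKM with DMSO and 0.0104 and 0.00785 FPKM with SB. In 3 of the 4 libraries the value was under what 1 fragment is worth at the length of SOX2. The longest 3′UTR of NANOG alone has 4046 bases, so 1 fragment can be worth less in NANOG. Its fragments were not counted, and at values this low neither group can be placed above the other. The 10 annotated NANOG pseudogenes, which share much of its sequence, were at or below 0.0869 FPKM.

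ZFP42 (ENSG00000179059.9, chr4:187995771-188005050, plus strand), the zinc finger gene known as REX1 and a classical marker of undifferentiated cells, entered the test only through its DMSO level. Its levels were 1.07 and 1.69 FPKM with DMSO and 0.569 and 1.03 FPKM with SB, so that both SB libraries were below both DMSO libraries by a narrow gap. The difference was -0.40 (SE 0.271, 95% interval -1.10 to 0.30) and did not pass in limma (adjusted p = 0.760). L1TD1 (ENSG00000240563.1, chr1:62194831-62212328, plus strand), an RNA-binding protein of hESCs derived from a LINE-1 element and a known partner of LIN28A, had levels of 0.635 and 0.764 FPKM with DMSO and 0.542 and 0.475 FPKM with SB. The SB libraries were below the DMSO libraries, and the gene stayed under the minimum for the test.

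In the order of levels, most neighbours were apart in both groups, meaning that the lowest library of the upper gene was above the highest library of the lower one. DNMT3B and DPPA4 overlapped with DMSO, as did LIN28B and SALL4, and with SB both pairs were apart. POU5F1 was below L1TD1 in both DMSO libraries and above it in both SB libraries. Likewise, POU5F1 was below ZFP42 in both DMSO libraries and above it in both SB libraries. These places in the order rest on values near 1 FPKM.

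**Figure D3:**
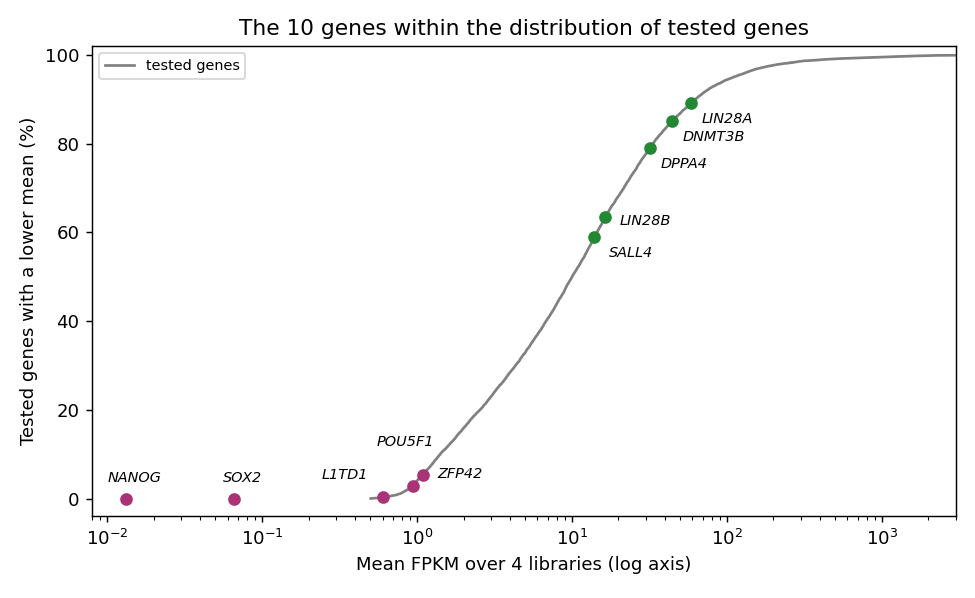
Mean level of the 10 genes over the 4 libraries (log axis, FPKM) against the percent of the 14909 tested genes with a lower mean; the grey line is the distribution of all tested genes, green points are the 5 genes of at least 10 FPKM and purple points the other 5. LIN28A, DNMT3B, DPPA4, LIN28B and SALL4 lie in the upper part of the distribution, and SOX2 and NANOG lie below its start.

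Start regions of NANOG, SOX2 and LIN28B are shown because their 250 bases before a RefSeq start hold the letters to which POU5F1 and SOX2 are known to bind. The windows were read from RefSeq (GRCh38.p14), in which 7 of the 10 genes were matched; POU5F1, LIN28A and SALL4 were not. The 7 letters ATGCAAA, shorter than a full octamer and called POU5F1 letters here, and the SOX letters ACAATG were searched on both strands. Both are in capitals. The POU5F1 letters were present in 3.94%, the SOX letters in 9.3% and both in 0.54% of 35116 such windows. NANOG held both, separated by 1 base, and SOX2 held the POU5F1 letters only. LIN28B held the SOX letters only, and DNMT3B, DPPA4, L1TD1 and ZFP42 neither. LIN28B has 2 such starts, of which the first is shown, and the window of the second held neither. The starts used for NANOG, LIN28B and DNMT3B lie 1.6, 4.3 and 17.5 kb inside their loci as given above. The windows lie at chr12:7789152-7789401, chr3:181711675-181711924 and chr6:104940715-104940964, all on the plus strand.
NANOG: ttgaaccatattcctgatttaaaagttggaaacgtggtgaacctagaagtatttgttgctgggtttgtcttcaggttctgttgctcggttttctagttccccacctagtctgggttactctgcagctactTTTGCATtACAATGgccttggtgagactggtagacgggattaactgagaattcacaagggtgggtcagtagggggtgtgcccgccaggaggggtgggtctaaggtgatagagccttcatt
SOX2: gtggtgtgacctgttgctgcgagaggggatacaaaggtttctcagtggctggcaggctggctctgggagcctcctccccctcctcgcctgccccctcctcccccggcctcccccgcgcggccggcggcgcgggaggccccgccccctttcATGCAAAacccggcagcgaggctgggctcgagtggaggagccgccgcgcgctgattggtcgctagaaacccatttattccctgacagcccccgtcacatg
LIN28B: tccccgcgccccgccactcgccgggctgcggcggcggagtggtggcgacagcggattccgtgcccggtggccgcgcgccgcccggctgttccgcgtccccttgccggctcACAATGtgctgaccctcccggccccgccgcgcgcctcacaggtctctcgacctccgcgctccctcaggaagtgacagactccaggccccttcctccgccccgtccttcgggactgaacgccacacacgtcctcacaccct

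The windows also differed in CG dinucleotides, the pairs that DNMT3B and its relatives methylate. NANOG held 4, DPPA4 and DNMT3B 3 each, L1TD1 12, SOX2 20, ZFP42 23 and LIN28B 33, beside a median of 11 over all windows. The LIN28B count is that of the first window, and the DNMT3B count that of an internal start. DNA methylation was not measured in these cells.

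Other genes of the pluripotent state were mostly low as well. Of 27 further genes of this kind, 15 reached 1 FPKM in at least 1 library, 5 (FOXD3, DPPA5, FGF4, ESRG and HHLA1) were listed at 0 in all 4, and 14 were tested. None of the 14 passed in limma, and their median difference was -0.10, beside a median of 0.04 over all tested genes. Of the 14, OTX2, SFRP2 and TDGF1 entered the test only through their DMSO levels and HESX1 only through its SB level. The directions of these genes are thus not evidence, and the median includes them. The genes with the highest mean levels were TCF7L1 and PHC1, regulators that many cell types use, and JARID2, a partner of Polycomb. OTX2, a homeobox factor of primed pluripotent and anterior neural cells, had levels of 1.32 and 1.56 FPKM with DMSO and 0.464 and 0.444 FPKM with SB, a difference of -0.75 (adjusted p = 0.374). VRTN had 3.85 and 2.66 FPKM with DMSO and 2.16 and 1.27 FPKM with SB (difference -0.66, adjusted p = 0.543).

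The activin and NODAL loop comprises the ligands and their secreted inhibitors, which hESCs express under the same receptors that SB blocks. NODAL itself was at or below 0.143 FPKM in every library. Of the 7 genes of the loop, 4 were tested and 0 passed. LEFTY1, an inhibitor of NODAL, had levels of 0.427 and 0.739 FPKM with DMSO and 2.57 and 2.61 FPKM with SB, a difference of 1.19 (95% interval 0.61 to 1.76, adjusted p = 0.200). TDGF1, the NODAL co-receptor CRIPTO, had 0.804 and 1.31 FPKM with DMSO and 0.224 and 0.298 FPKM with SB, a difference of -0.70 (adjusted p = 0.480). LEFTY1 entered the test only through its SB level and TDGF1 only through its DMSO level, so their directions are not evidence either. GDF3, a ligand of the same family, differed by 0.15 (adjusted p = 0.887).

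Beside the LIN28 pair, the enzymes of let-7 maturation were measured at the level of their messages. Of 10 symbols listed, 8 were found (TUT4 and TUT7 are newer symbols of ZCCHC11 and ZCCHC6). All 8 were tested, in all 8 the groups overlapped, and 0 passed, with a median difference of 0.05. KHSRP, which promotes let-7 maturation, was the highest at 317 and 187 FPKM with DMSO and 330.2 and 214 FPKM with SB. ZCCHC11, the terminal uridylyl transferase that LIN28A recruits, had 29.9 and 39.7 FPKM with DMSO and 30.2 and 26.9 FPKM with SB, a difference of -0.27 (adjusted p = 0.796). Mature let-7 was not measured in these libraries, and of 4 host genes of let-7 only MIR99AHG reached 1 FPKM, at 2.27 and 9.48 FPKM with DMSO and 5.22 and 3.49 FPKM with SB.

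Of 20 known let-7 targets, 19 were tested and 0 passed. In 14 of them the groups overlapped, 3 were above with SB and 2 below, and the median difference was 0.07. Over all tested genes, 21.5% were above and 16.0% below. MYCN, a proto-oncogene, was above with SB at 67.0 and 61.6 FPKM, beside 47.4 and 37.9 FPKM with DMSO (difference 0.59, adjusted p = 0.409). CDC25A, a cell cycle phosphatase, differed by 0.48 (adjusted p = 0.530). ARID3A and CDC34, the targets with the highest mean levels, differed by 0.04 and -0.15. IGF2BP2, an RNA-binding protein of fetal tissues, was below with SB in both libraries (difference -0.22, adjusted p = 0.770).

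The lists nearest to DNMT3B and SALL4 held genes that did not pass either. Of 11 genes of DNA methylation and demethylation, 10 were tested, 4 were above with SB and 0 below, and the median difference was 0.21. CDCA7, a remodeling cofactor that helps maintain methylation and is a target of MYC, had 23.3 and 24.8 FPKM with DMSO and 36.6 and 38.3 FPKM with SB, a difference of 0.62 (adjusted p = 0.307). All 12 genes of NuRD, the deacetylase complex that SALL4 recruits, were tested, 4 were above with SB and 0 below, and the median difference was 0.15. Over all tested genes, 21.5% were above and 16.0% below, the shares to set beside both lists. The subunits MTA2 and RBBP7 differed by 0.20 and 0.22 and MBD2 by -0.27, with adjusted p between 0.788 and 0.813.

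**Figure D4:**
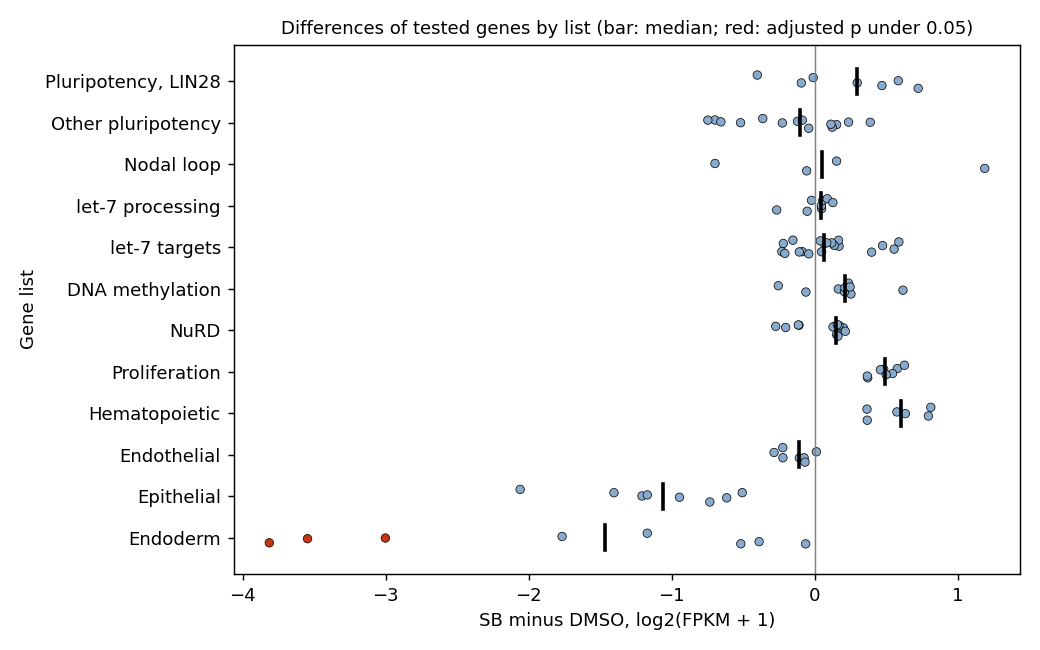
Difference between SB and DMSO on the log2(FPKM + 1) scale for the tested genes of 12 lists, with 1 point per gene and a bar at the median of each list; red points had an adjusted p under 0.05 in limma. The pluripotency and LIN28 genes lie between -0.40 and 0.72, and the 3 red points are APOA1, AFP and TTR of the endoderm list.

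Markers of other cells also differed between the same libraries, and their values stand beside those of the 10 genes. All 6 tested hematopoietic genes (of 7) were above with SB without passing, their median difference was 0.60, and their summed level was 310 to 336 FPKM with DMSO and 471 to 522 FPKM with SB. ITGA2B, RUNX1 and SPN differed by 0.63, 0.81 and 0.80, while PTPRC, the pan-leukocyte gene CD45, was at or below 0.202 FPKM. Of 8 genes of proliferation, 5 were above with SB and 0 below, with a median difference of 0.49 and a summed level of 205 to 245 FPKM with DMSO and 299 to 326 FPKM with SB. Over all tested genes, 21.5% were above and 16.0% below. With the replicate number as an added term in limma, 4 of the 6 hematopoietic and 7 of the 8 proliferation genes passed. The share over all tested genes in that fit was 10.5%. LIN28A passed in the same fit, as did 3 of the 10 housekeeping genes. MKI67 and CCNB1 differed by 0.58 and 0.63. LIN28A, with its difference of 0.59, thus differed by about as much as these lists, and as ACTB (difference 0.60), while the 10 housekeeping genes had a median of 0.16. The part of these markers in the differences of LIN28A, LIN28B and POU5F1 was not tested.

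Epithelial and endodermal genes were mostly below with SB. All 8 epithelial genes were below with SB without passing, beside 16.0% of all tested genes that were below. The median difference of this list was -1.06, and its summed level was 254 to 260 FPKM with DMSO and 118 to 125 FPKM with SB. ESRP1 and CLDN4 entered the test only through their DMSO levels, so their directions are not evidence, and the median includes them. EPCAM, which hESCs share with epithelia, had 8.09 and 11.1 FPKM with DMSO and 2.59 and 3.39 FPKM with SB (difference -1.40, adjusted p = 0.161), and CDH1 differed by -0.73. In the endoderm list, 8 of 10 genes were tested, 5 were below with SB and 3 overlapped. FOXA2, which was below, and FOXA1, which overlapped, entered the test only through their DMSO levels, so their directions are not evidence. The summed level was 221 to 267 FPKM with DMSO and 43.9 to 84.5 FPKM with SB. In limma 3 genes fell (APOA1, AFP and TTR, with differences of -3.81, -3.55 and -3.00 and adjusted p = 0.0201, 0.0232 and 0.0353). Of all tested genes, 0.134% passed in either direction. The 3 calls were lost when any 1 library was left out. With the replicate number as an added term in limma, 5 epithelial and 5 endoderm genes fell. In that fit 10.5% of all tested genes passed in either direction. The part of these markers in the values of ZFP42 and L1TD1 was not tested.

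Neural and germ line genes, which share SOX2, DPPA4 or SALL4 with pluripotent cells, were checked in the same way. Of 10 neural genes, NES and OTX2 were tested and both were below with SB, as were 16.0% of all tested genes. NES had a difference of -0.62 (adjusted p = 0.367, limma). OTX2 entered the test only through its DMSO level, so its direction is not evidence. PAX6, SOX1 and NEUROG2 were at or below 0.0859 FPKM. Of 11 germ line genes, 5 were tested and 0 passed, DAZL was listed at 0 in all 4 libraries, and DDX4 and TFAP2C were at or below 0.215 FPKM. Other germ line genes were present: NANOS3 had levels of 0.867 to 2.22 FPKM, PRDM1 of 2.04 to 3.85 FPKM and TFAP2A of 3.56 to 3.85 FPKM. KIT and SOX17, which blood progenitors and endothelium also express, reached 7.45 and 53.3 FPKM. In the endothelial list all 7 genes were tested, 0 passed, and the summed level was 1386 to 1546 FPKM with DMSO and 1276 to 1391 FPKM with SB.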

How the data were processed

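RNA-seq was done by a service company from Trizol-extracted total RNA with an Illumina TruSeq kit, in 2 DMSO and 2 SB libraries grouped by their titles. The authors deposited FPKM values, 58365 rows by 4 libraries. The submitters' processing notes name BWA, Bowtie and RSEM, without versions or roles, and the build hg19. The row positions are of another build: 95.5% of the identifiers had the same version in GENCODE 29 on GRCh38, and 99.8% of these the same position, so coordinates are given on GRCh38. Strand use and scaling between libraries are not given in the sources used here.

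Values were transformed to log2(FPKM + 1), and genes with a group mean of at least 1 FPKM (14909) were compared with limma 3.58.1 (R 4.3.3, empirical Bayes with a trend, group as the only term). Two-sided p-values were adjusted over all tested genes (Benjamini-Hochberg) and called under 0.05. The study names Student's t test for its other data. A permutation test of 2 against 2 libraries cannot go below 0.333 and was not used. The script was tested on simulated data.

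Relative depth and SOX2 fragments came from the spacing of low values in single-exon genes, where 91.7% to 96.5% of the values lay within 0.1 of a whole step. Of the other lists, the genes past the threshold are named, or else up to 3 with the highest mean and up to 3 with the smallest unadjusted p; DPPA2, EPCAM, CDH1 and the genes cited for near-absence were named after their values were seen, and some genes of the lists are not reported here. The 10 genes and the lists were chosen with earlier results of these data known. Alternatives were 3 scalings, another pseudocount, 3 filters, a replicate block, no trend and leaving out each library.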

Additional observations from a re-analysis of the deposited data

How the results depend on the processing

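None of the 7 tested genes passed under any of the 3 scalings, the pseudocount of 0.1, the 3 filters, the fit without a trend or the removal of any library. Of 88 values of these genes under 13 alternatives, 85 kept their direction and their side of the threshold. The exceptions were DPPA4, which ranged from -0.25 to 0.23 over the removals of 1 library and was above 0 in 2 of them (0.23 when DMSO replicate 2 was out, 0.20 when SB replicate 1 was out), and LIN28A under the replicate block. Over the removals of 1 library, the difference of LIN28B ranged from 0.18 to 0.77, of DNMT3B from 0.17 to 0.42, of SALL4 from -0.16 to -0.02 and of ZFP42 from -0.59 to -0.21. POU5F1 (mean of all libraries under 1 FPKM) had no value under the filter on that mean or the filter of 5 FPKM in 2 libraries, ZFP42 none under the latter.

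The replicate number was fitted as a block although the labels do not say that it pairs cultures. With 2 pairs, the deviations of same-numbered libraries correlated at Pearson's r of 0.528. With the block, 1 of the 7 genes passed (LIN28A, adjusted p = 0.0154), among 1564 genes in all (10.5% of those tested, 820 higher and 744 lower, the 20 genes of the fit without the block included) and 28 genes of the other lists.

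Over all genes, 31 passed after quantile normalization and 0 without the filter on low values, where 2739 had an unadjusted p under 0.05. Leaving out 1 library left between 0 and 16 genes, with 0 when DMSO replicate 1 was out and 7 when SB replicate 1 was; a group left with 1 library was taken to vary like the other. Of the list genes 3 passed, 0 without the filter and 0 without any one library. The scalings moved the median of all genes by -0.02 to -0.04 on the log2 scale. Scaling to the sum of TPM in each library raised every gene, because the FPKM sums, from 570844 to 612614, were below it. It is thus mostly a change of unit. The factor differed between libraries, so the differences also moved (LIN28A from 0.59 to 0.54, SALL4 from -0.09 to -0.14). All 20 group levels of the 10 genes were higher by more than their SD (LIN28A with DMSO 80.5 in place of 46.8, POU5F1 with SB 2.35 in place of 1.42), and 5 genes still had a mean of at least 10. Depth limits SOX2, at 2 to 7 fragments per library.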
